A study of Mus musculus with 2 samples.

Results

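The potassium channel genes of the mouse were followed in embryonic kidney. They are the protein-coding genes of GENCODE M21 whose symbol starts with Kcn and a family letter (a to h, j, k, m, n, q and s to v) followed by a number or letter. This rule found 89 genes among 21474 protein-coding genes that matched the tables, and no measured value entered it. Pore-forming subunits and the auxiliary subunits that carry a Kcn symbol were both included. Genes that only bear such a symbol as an antisense or other non-coding gene were left out.

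Total RNA was sequenced from 2 pools of whole kidney of B6NCrl mice at embryonic day 15.5, which form the only group, embryonic kidney. Replicate 1 pooled 78 embryos and replicate 2 pooled 62 embryos, each of both sexes and labelled healthy, with no treatment or altered allele named. The pools are labelled as separate biological replicates, and each gave 1 library from 10 ng of RNA. The libraries held 36244861 expected counts in replicate 1 and 39415002 in replicate 2. Levels are given in TPM, transcript abundances adjusted for gene length, so that genes can be set beside each other. In whole tissue, fewer cells of a type and less RNA per cell cannot be told apart, and each value is a mean over all the embryos of its pool.

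Potassium channels let potassium ions pass through the cell membrane down their gradient, and so set the membrane voltage. In the kidney they recycle potassium for the sodium pump and the sodium, potassium and chloride cotransporter, secrete potassium into the tubule fluid, and set the tone of renal vessels. Inward rectifier (Kir) subunits have a single pore loop between a pair of membrane spans, two-pore-domain (K2P) subunits carry a pair of pore loops and conduct at rest, and voltage-gated (Kv) subunits open when the membrane depolarises. Silent Kv subunits form channels only together with other Kv subunits. Most subunits of the class called calcium- or sodium-activated open when those ions rise inside the cell. Auxiliary subunits change the gating or transport of a pore without forming one.

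The pore loop ends in the selectivity filter, the stretch that strips water from potassium ions and lets them pass in single file. Its coding sequence is shown for several of the members on which the results below turn. The filter belongs to pore-forming subunits, and its codons can be read without use of expression. Capitals mark the 15 bases of the filter's 5 codons, and the 9 bases before and after them are in lower case. Sequences are in coding direction on mouse build mm10, from the longest coding GENCODE M21 transcript of each gene. The first filters of Kcnk1, Kcnk5 and Kcnk3 cross an exon junction, so that their coordinates span an intron that is not printed. The other filters shown lie within 1 coding exon.
Kcnk1, first pore loop, exons 1 and 2, chr8:125995799-126025028, plus strand: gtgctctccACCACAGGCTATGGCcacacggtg
Kcnk1, second pore loop, exon 2, chr8:126025320-126025352, plus strand: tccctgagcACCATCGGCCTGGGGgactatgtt
Kcnk5, first pore loop, exons 2 and 3, chr14:20145106-20146516, minus strand: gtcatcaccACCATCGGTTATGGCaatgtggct
Kcnk5, second pore loop, exon 4, chr14:20144639-20144671, minus strand: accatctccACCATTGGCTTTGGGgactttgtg
Kcnk3, first pore loop, exons 1 and 2, chr5:30588584-30621907, plus strand: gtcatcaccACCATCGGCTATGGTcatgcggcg
Kcnk3, second pore loop, exon 2, chr5:30622193-30622225, plus strand: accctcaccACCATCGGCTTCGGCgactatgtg
Kcnj8, exon 3, chr6:142566439-142566471, minus strand: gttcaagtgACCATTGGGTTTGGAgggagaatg
Kcnj1, exon 2, chr9:32396696-32396728, plus strand: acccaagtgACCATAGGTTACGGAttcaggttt
Kcnh2, exon 7, chr5:24325546-24325578, minus strand: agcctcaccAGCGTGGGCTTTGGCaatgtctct
Kcns3, exon 3, chr12:11091566-11091598, minus strand: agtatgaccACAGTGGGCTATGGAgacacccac
Kcng1, exon 2, chr2:168262632-168262664, minus strand: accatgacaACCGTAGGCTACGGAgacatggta

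Codons for threonine, any residue, glycine, tyrosine or phenylalanine, and glycine, in that order and in frame, were found in 66 of the 77 members of the pore-forming and silent classes. They were found in 0 of the 12 auxiliary members. The 11 pore-class members without them were 7 of the 8 Kcnh genes, Kcnn1, Kcnn2, Kcnn3 and Kcnj14. When serine was also allowed at the first codon and leucine at the fourth, a choice made after seeing the data, all 77 pore-class members and 0 of 12 auxiliary members held a match. Kcnh2 above has a serine codon at the first place, and the second pore loop of Kcnk1 has a leucine codon at the fourth. All 14 K2P members held 2 such matches, and all 15 Kir and all 10 silent Kv members held 1. Among the 30 Kv members, 28 held 1 and 2 held 2, since the wider letters also matched Kcnh2 and Kcna6 at a place outside the filter. A match in these letters is a description of the sequence and says nothing of the channel's conductance.

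Most potassium channel genes lay low in the embryonic kidney, and a few carried much of the RNA. Of the 89 members, 38 (42.7%) reached 1 TPM in each of the libraries and are called detected, whereas 62.3% of all protein-coding genes did. The median level of the members was 0.74 TPM in replicate 1 and 0.67 TPM in replicate 2, beside 5.13 and 5.34 TPM over all protein-coding genes. Together the members held 200 ± 6.40 TPM (SD, n = 2), which is 0.020% of the total. The 4 highest members, Kcnk1, Kcnj8, Kcne1l and Kcnk5, held 41.6% of that sum, and they alone reached a mean of 10 TPM. A further 13 members averaged from 3 up to 10 TPM, and 21 detected members averaged from 1 up to 3 TPM. Another 4 members, Kcng1, Kcna3 and Kcnn2 among them, reached 1 TPM in 1 library, and 47 stayed below 1 TPM in both. Among those 47, 17 were below 0.1 TPM in both libraries.

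**Figure D1:**
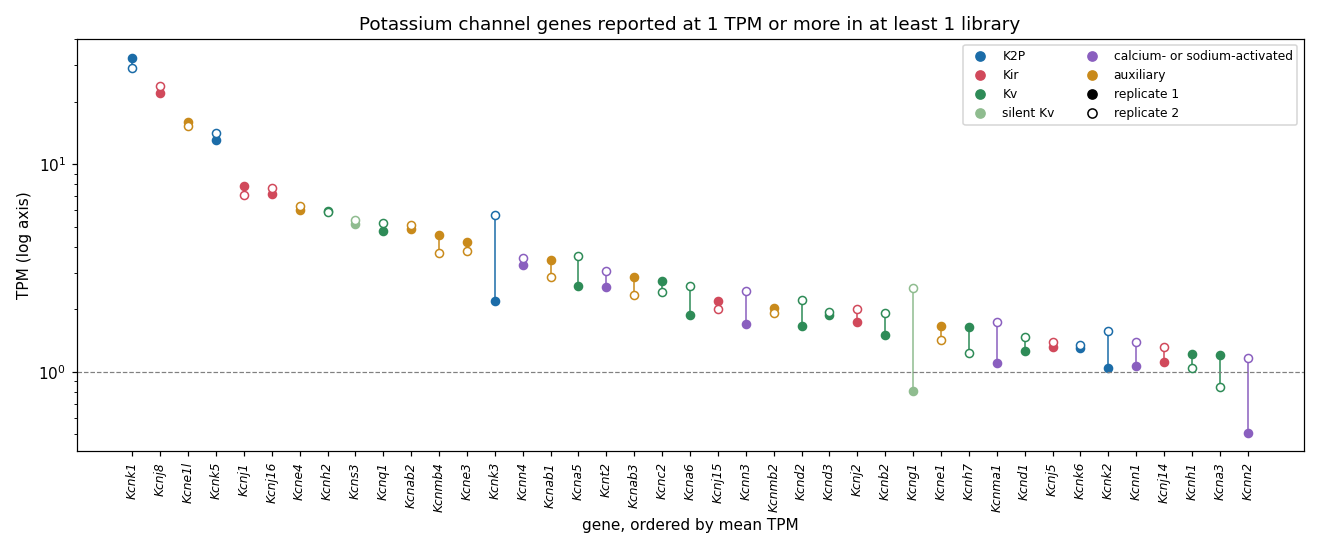
Level in TPM (log axis) of potassium channel genes that reached 1 TPM in at least 1 library, ordered by mean level and coloured by class, with filled points for replicate 1 and open points for replicate 2. Kcnk1 and Kcnj8 stand at the top, and the longest lines between the points belong to Kcnk3, Kcng1 and Kcnn2.

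By class, 9 of 12 auxiliary subunits were detected, as were 5 of 8 calcium- or sodium-activated, 7 of 15 Kir, 11 of 30 Kv, 5 of 14 K2P and 1 of 10 silent Kv subunits. K2P genes held 26.2% of the members' summed TPM, Kir genes 23.3%, auxiliary genes 22.5%, Kv genes 17.5%, calcium- or sodium-activated genes 6.23% and silent Kv genes 4.27%. By symbol prefix the members form 19 families, of which 15 had a detected member. Kcnf, Kcng, Kcnu and Kcnv had none.

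**Figure D2:**
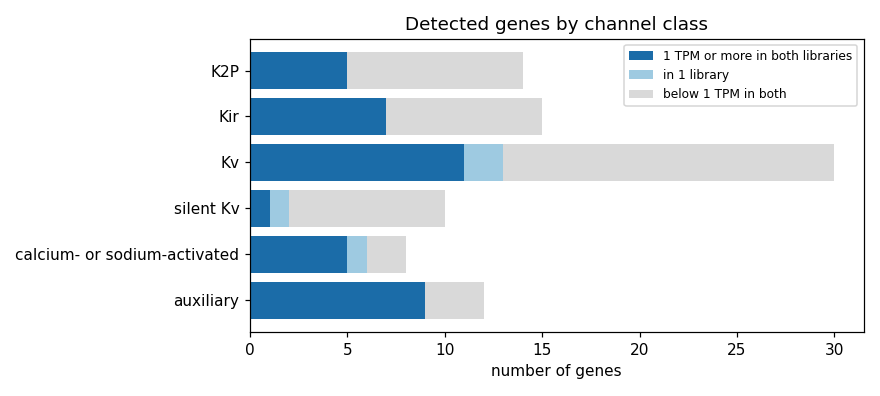
Number of potassium channel genes per class (horizontal axis), split into genes at 1 TPM or more in both libraries, in 1 library, and below 1 TPM in both. The auxiliary class has 9 of 12 genes detected in both libraries, and the silent Kv class 1 of 10.

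Among the K2P genes, which pass a leak current at rest, 5 of 14 were detected and 1 stood far above the others. Kcnk1 (chr8:125995170-126030685, plus strand), which encodes the founding two-pore subunit TWIK, had 32.64 TPM in replicate 1 and 29.14 TPM in replicate 2. It was the highest of all 89 members in both libraries, with 1760 and 1692 counts. Kcnk5 (chr14:20140057-20181809, minus strand), an alkali-activated channel known in the proximal tubule for its part in bicarbonate recovery, had 13.08 and 14.11 TPM. Kcnk1 exceeded Kcnk5 by 1.13 ± 0.184 on the log2(TPM + 1) scale (SD, n = 2). That is beyond the 0.37 that 95% of mouse genes of any class at the level of the lower gene stayed within between the 2 libraries, a bound called replicate error from here on.

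The other detected K2P genes were low. Kcnk3, an acid-sensitive TASK channel known for its background current in adrenal cortex and vascular muscle, had 2.20 TPM in replicate 1 and 5.71 TPM in replicate 2, and is taken up below. Kcnk6, a relative of Kcnk1, had 1.30 and 1.35 TPM. The stretch-sensitive Kcnk2 had 1.04 and 1.58 TPM, and its relative Kcnk10 had 0.75 and 0.44 TPM. Kcnk2 and Kcnk10 did not differ beyond replicate error. Kcnk9, the close relative of Kcnk3, had 0 and 0.10 TPM from 0 and 3 counts, and Kcnk3 exceeded it by 2.14 ± 0.658 on the log2(TPM + 1) scale (SD, n = 2), beyond replicate error in both libraries. The remaining K2P genes were Kcnk13 at 0.36 and 0.33 TPM, Kcnk16, Kcnk7, Kcnk4, Kcnk12 and Kcnk18 at 0 to 0.24 TPM, and Kcnk15. Kcnk15 had 0 counts in both libraries, and a count of 0 allows up to 0.0838 TPM in replicate 1 and 0.0779 TPM in replicate 2.

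Among the Kir genes, 7 of 15 were detected, and Kcnj8 led. Kcnj8 (chr6:142564837-142571614, minus strand) encodes the pore of the ATP-sensitive potassium channel of vascular smooth muscle and pericytes. It had 21.95 TPM in replicate 1 and 23.92 TPM in replicate 2, with 1123 and 1318 counts, so that the libraries were close. Its usual partner in vessels, the sulfonylurea receptor Abcc9, had 5.08 and 5.56 TPM. Kcnj8 exceeded Abcc9 by 1.92 ± 0.00650 on the log2(TPM + 1) scale (SD, n = 2). The other ATP-sensitive pore gene, Kcnj11, known from pancreatic beta cells and muscle, had 0.15 and 0.14 TPM, and Kcnj8 exceeded it by 4.38 ± 0.0929 on that scale, the widest gap among the 22 pairs compared. Abcc8, the receptor paired with Kcnj11 in beta cells, had 0.93 and 0.97 TPM, and Kcnj11 and Abcc8 did not differ beyond replicate error with the pseudocount of 1 TPM. With a pseudocount of 0.1 TPM, Kcnj11 was lower beyond it.

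The Kir genes known from tubule epithelium followed. Kcnj1 encodes ROMK, the channel through which the thick ascending limb recycles potassium and the collecting duct secretes it. It had 7.85 TPM in replicate 1 and 7.14 TPM in replicate 2, lower than Slc12a1, the cotransporter it serves in the thick ascending limb, which had 33.86 and 30.79 TPM. The difference was -1.97 ± 0.00873 on the log2(TPM + 1) scale (SD, n = 2). Kcnj16, a subunit that acts with Kcnj10 or Kcnj15 on the basolateral side of tubule cells, had 7.16 and 7.69 TPM. Its partners were lower. Kcnj10, its partner in the distal tubule, had 0.83 and 0.67 TPM and lay below Kcnj16 by a log2(TPM + 1) difference of -2.27 ± 0.158 (SD, n = 2). Kcnj15, its partner in the proximal tubule, had 2.19 and 2.01 TPM, a difference of -1.44 ± 0.123 from Kcnj16 on the same scale. All of these differences exceeded replicate error.

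Of the remaining Kir genes, Kcnj2, a strong inward rectifier of muscle and vessels, had 1.73 and 2.01 TPM, and its relative Kcnj14 had 1.12 and 1.32 TPM. Kcnj5, a G protein-gated subunit known in the heart and in aldosterone-producing adrenal cells, had 1.32 TPM in replicate 1 and 1.40 TPM in replicate 2. Its heart partner Kcnj3 had 0.06 TPM in both, a difference of -1.15 ± 0.0346 from Kcnj5 on the log2(TPM + 1) scale (SD, n = 2). Kcnj13 had 0.74 and 0.53 TPM, and it overlaps an exon of the opposite-strand gene Gigyf2, which had 52.18 and 48.48 TPM. The sources used here do not say whether counting used strand, and without strand the reads of such overlapping genes cannot be told apart. Kcnj12 had 0.63 and 0.36 TPM, Kcnj4 and Kcnj9 had 0.01 to 0.09 TPM, and Kcnj6 had 0 counts in both libraries.

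Among the Kv genes, 11 of 30 were detected, none above 6 TPM. Kcnh2, the ERG channel best known for repolarising the heart, had 5.96 and 5.91 TPM with 414 and 451 counts. Its relative Kcnh1 had 1.22 and 1.04 TPM, a difference of -1.70 ± 0.0789 from Kcnh2 on the log2(TPM + 1) scale (SD, n = 2), beyond replicate error. Kcnh7 had 1.65 and 1.23 TPM and overlaps an exon of Gca on the opposite strand, which had 14.1 and 12.28 TPM. Kcnq1, which serves the heart, inner ear and epithelia according to the Kcne subunit it joins, had 4.75 TPM in replicate 1 and 5.24 TPM in replicate 2. It overlaps the antisense RNA Kcnq1ot1, which had 3.59 and 3.80 TPM. Its relative Kcnq5 had 0.83 and 0.95 TPM, and Kcnq3, which carries the M-current of neurons, had 0.05 and 0.15 TPM.

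The Shaker-type genes were led by Kcna5, a delayed rectifier of vascular and atrial muscle, at 2.60 TPM in replicate 1 and 3.63 TPM in replicate 2. Kcna6 had 1.88 and 2.59 TPM, and Kcna3, known from lymphocytes, had 1.20 and 0.85 TPM. All 3 genes of the Kcnd family, which pass fast inactivating A-type currents, were detected. Kcnd2 had 1.66 and 2.22 TPM, Kcnd3 had 1.89 and 1.94 TPM, and Kcnd1 had 1.26 and 1.47 TPM. Kcnc2, a fast delayed rectifier of interneurons, had 2.74 and 2.42 TPM, whereas Kcnc1 and Kcnc4 lay between 0.05 and 0.30 TPM. Kcnb2, a slow delayed rectifier of neurons, had 1.51 and 1.93 TPM. Further Kv genes were Kcna1, Kcna2, Kcna4, Kcna7, Kcnh3, Kcnh4, Kcnh5, Kcnh6 and Kcnh8 at 0.01 to 0.63 TPM, and Kcna10, which had 0 counts in both libraries.

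A single silent Kv gene was detected in both libraries. Kcns3, which modifies channels of the Kcnb family, had 5.13 TPM in replicate 1 and 5.39 TPM in replicate 2. Kcng1, another modifier of the Kcnb family, had 0.81 and 2.55 TPM and is taken up below. Kcnf1 had 0.48 and 0.52 TPM and Kcng2 had 0.38 and 0.57 TPM. The others, Kcng3, Kcng4, Kcns1, Kcns2, Kcnv1 and Kcnv2, lay between 0 and 0.30 TPM.

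Among the calcium- or sodium-activated genes, 5 of 8 were detected. Kcnn4, the intermediate-conductance channel known from epithelia, red cells and lymphocytes, had 3.27 and 3.55 TPM. Kcnn3, a small-conductance channel of neurons and endothelium, had 1.71 and 2.46 TPM and did not differ from Kcnn4 beyond replicate error. Kcnn1 had 1.07 and 1.40 TPM, and Kcnn2 had 0.51 and 1.17 TPM. The sodium-activated Kcnt2 had 2.56 TPM in replicate 1 and 3.07 TPM in replicate 2, and its relative Kcnt1 had 0.28 and 0.38 TPM, a difference of -1.52 ± 0.0598 from Kcnt2 on the log2(TPM + 1) scale (SD, n = 2). Kcnma1, the large-conductance BK channel that secretes potassium in the collecting duct at high flow and relaxes smooth muscle, had 1.11 and 1.73 TPM. Kcnj1 exceeded Kcnma1, the other secretory channel, by 1.82 ± 0.348 on the log2(TPM + 1) scale (SD, n = 2), beyond replicate error. Kcnu1, a relative known from mouse sperm and placed in this class by its symbol prefix, had 0.37 and 0.34 TPM.

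Among the auxiliary subunits, 9 of 12 were detected, 1 of them above 10 TPM. Kcne1l (chrX:142304752-142306294, minus strand), a single-span subunit of the Kcne family, had 15.98 TPM in replicate 1 and 15.23 TPM in replicate 2, with 565 and 580 counts. Kcne4, which inhibits Kcnq1 and some Kcna channels, had 6.0 and 6.28 TPM, and Kcne3, which keeps Kcnq1 open in epithelia, had 4.23 and 3.82 TPM. Kcne1, which slows Kcnq1 in the heart and inner ear, had 1.66 and 1.42 TPM, and Kcne2, known with Kcnq1 in the stomach, had 0.08 and 0.22 TPM. Set against Kcnq1 on the log2(TPM + 1) scale, Kcne1 differed by -1.24 ± 0.180 and Kcne2 by -2.38 ± 0.0409 (SD, n = 2 each), both beyond replicate error. Kcne3 did not differ from Kcnq1 beyond replicate error.

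All 3 cytoplasmic beta subunits of Kcna channels were detected. Kcnab2 had 4.87 and 5.09 TPM, Kcnab1 had 3.46 and 2.86 TPM, and Kcnab3 had 2.86 and 2.34 TPM. Kcnab1 and Kcnab2 did not differ beyond replicate error. Among the beta subunits of the BK channel, Kcnmb4, known from brain and from kidney epithelium, had 4.58 TPM in replicate 1 and 3.74 TPM in replicate 2. Kcnmb2 had 2.04 and 1.92 TPM, the smooth muscle subunit Kcnmb1 had 0.35 and 0.58 TPM, and Kcnmb3 had 0.10 and 0.05 TPM. Kcnmb4 and Kcnmb1 were each set against Kcnma1, and with the pseudocount of 1 TPM neither difference exceeded replicate error in both libraries. With a pseudocount of 0.1 TPM both did, Kcnmb4 above Kcnma1 and Kcnmb1 below it. On the log2(TPM + 1) scale Kcnmb4 exceeded Kcnma1 by 1.40 in replicate 1 and by 0.80 in replicate 2, and the bound at that level was 0.92.

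Of the 22 pairs, 14 differed beyond replicate error in both libraries, 6 with the first gene higher and 8 with the second. The bound came from the bin of the lower gene, and genes below 1 TPM took the bound of the bin from 1 to 3 TPM. It measures how far a single gene moved between the libraries, without a pseudocount. Errors that arise when different genes are set beside each other are not covered by it. The pairs were not drawn at random, since most set a pore against its partner or against a close relative. A pair that stayed within the bound is not thereby shown to be equal.

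**Figure D3:**
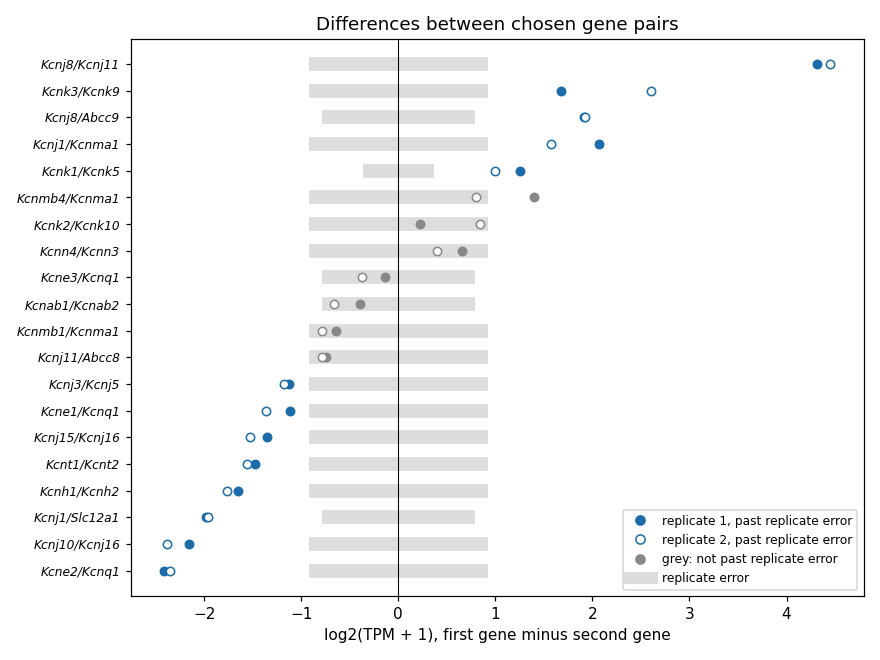
Difference in log2(TPM + 1) between the first and the second gene of the pairs reported here (horizontal axis), with filled points for replicate 1, open points for replicate 2 and a grey bar for replicate error at the level of the lower gene. Blue points mark the pairs with both points outside the bar, from Kcnj8 over Kcnj11 at the top to Kcne2 against Kcnq1 at the bottom.

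Partner proteins outside the rule, the Kcnip genes among them, and genes of tubule potassium handling were listed beside the channels. Of 17 partners, 10 were detected. Among the highest were the calmodulin gene Calm2, whose protein serves many other targets, at 867.6 and 790.5 TPM, and the anchoring protein Akap9 at 99.65 and 101.2 TPM. Abcc8, Kcnip4, Dpp10, Lrrc26, Lrrc38 and Lrrc55 were below 1 TPM in both libraries, and Lrrc52 had 0 counts in both. The 24 genes of tubule potassium handling, which include sodium pump subunits, cotransporters, chloride channels and the kinases that govern them, were all detected. Among the highest were the sodium pump genes Fxyd2 at 367.2 and 336.7 TPM and Atp1b1 at 146.9 and 131.9 TPM. Of the 24 genes, 23 had a mean count of 100 or more, and of the 17 partners 9 did. None of these passed a 2-fold ratio between the pools, beside 1.22% of protein-coding genes with that count.

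Several members lie next to each other in the genome. Within 100 kb of each other on mm10 there were 8 neighbouring pairs, made up of 15 genes. Both genes were detected in 2 pairs, 1 gene in 3 pairs and neither in 3 pairs. The pairs with both detected were Kcnj16 with Kcnj2 on chromosome 11 and Kcnj5 with Kcnj1 on chromosome 9. Kcnk5 and Kcnk16 on chromosome 14, lie on the same strand and 79566 bases apart, with Kcnk5 at 13.08 and 14.11 TPM and Kcnk16 at 0.16 and 0.10 TPM from 3 and 2 counts. Kcne1 and Kcne2 on chromosome 16 and Kcna6 and Kcna1 on chromosome 6 were the other pairs with 1 gene detected.

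For transcripts, the authors' percent of each gene's TPM was used. Of the 38 detected members, 13 have 1 annotated transcript in the tables and 25 have several. The same transcript led in both libraries for 23 of the 25, and it held 75% or more in both libraries for 9. The exceptions were Kcne3 and Kcne1. Kcne1-202 held 63.88% of Kcne1 in replicate 1 and 49.66% in replicate 2, and Kcne1-201 held 36.12% and 50.34%. In Kcnh2 the transcript with the 2460-base coding sequence, Kcnh2-202, held 44.66% in replicate 1 and 45.65% in replicate 2, and the longer Kcnh2-201, with 3486 coding bases, held 31.73% and 32.71%. Kcnq1-201 held 90.61% and 78.38% of Kcnq1, with 4.31 TPM from 309.16 counts in replicate 1 and 4.11 TPM from 317.48 counts in replicate 2. Most of the rest was the 282-base Kcnq1-207, which held 9.39% and 19.77% from only 2 and 5 counts. The difference in percent between the libraries thus rests on few counts. All of Kcnj8 was assigned to Kcnj8-201, whose coding sequence in GENCODE M21 has 381 bases. The quantified GENCODE M4 transcript has 2188 bases and that of GENCODE M21 2269. The coding length in GENCODE M21 therefore need not be that of the transcript quantified. The Kcnj8 filter shown above was read from Kcnj8-202, with 1272 coding bases, which has no level in the data. The filters of Kcnj1 and Kcng1 were read from Kcnj1-202 and Kcng1-201, which had 0 counts in both libraries. The leading transcripts of these genes were Kcnj1-201 and Kcng1-202. The leading transcript was annotated as protein-coding for 36 of the 38 genes. The exceptions were Kcnab1 and Kcna6, the latter led by Kcna6-201, a transcript annotated for nonsense-mediated decay. Kcna6-201 has 1587 coding bases, as many as the protein-coding Kcna6-204, which held 24.93% of Kcna6 in replicate 1 and 0% in replicate 2. In Kcnab1 the non-coding transcript Kcnab1-204 held 55.29% and 62.79%, and the coding transcript Kcnab1-201 held 7.14% and 2.49%. The level of Kcnab1 given above is mostly that of transcripts with no annotated coding sequence.

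The pools were close for most members. Of the 37 members with a mean expected count of 100 or more, 35 stayed within a 2-fold TPM ratio and 2 passed it (5.41%), beside 1.22% of 12783 protein-coding genes with that count. Both were higher in replicate 2, the direction of 0.814% of those protein-coding genes, and 0 members were past 2-fold higher in replicate 1, the direction of 0.407%. The median absolute log2 ratio between the libraries was 0.20 over the 38 detected members and 0.10 over detected protein-coding genes, which were also higher, with a median of 19.4 TPM beside 2.45 TPM. Of the 38, 24 were higher in replicate 2 and 14 in replicate 1. The same split over all detected protein-coding genes was not counted, so these numbers are not read as a trait of the members. A single detected member, Kcnk3, lay outside replicate error for its level, beside 3.97% of detected protein-coding genes. With 2 libraries no p is given, since the smallest exact 2-sided p would be 0.5.

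Kcnk3 (chr5:30588170-30625271, plus strand) had 2.20 TPM from 200 counts in replicate 1 and 5.71 TPM from 559 counts in replicate 2. The TPM ratio of replicate 1 over replicate 2 was 0.385. The CPM ratio, from counts scaled to the library total, was 0.389, with an exact 95% interval from 0.329 to 0.458 that covers counting error only. Kcng1 (chr2:168260117-168281736, minus strand) had 0.81 TPM from 79 counts in replicate 1 and 2.55 TPM from 250 counts in replicate 2. Its TPM ratio was 0.318 and its CPM ratio 0.344, with an exact 95% interval from 0.263 to 0.444. With a pseudocount of 1 TPM added to both libraries, Kcng1 no longer passed 2-fold and Kcnk3 still did. Without replicate 1 or without replicate 2 no ratio is left, so that each pool stands for itself alone.

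**Figure D4:**
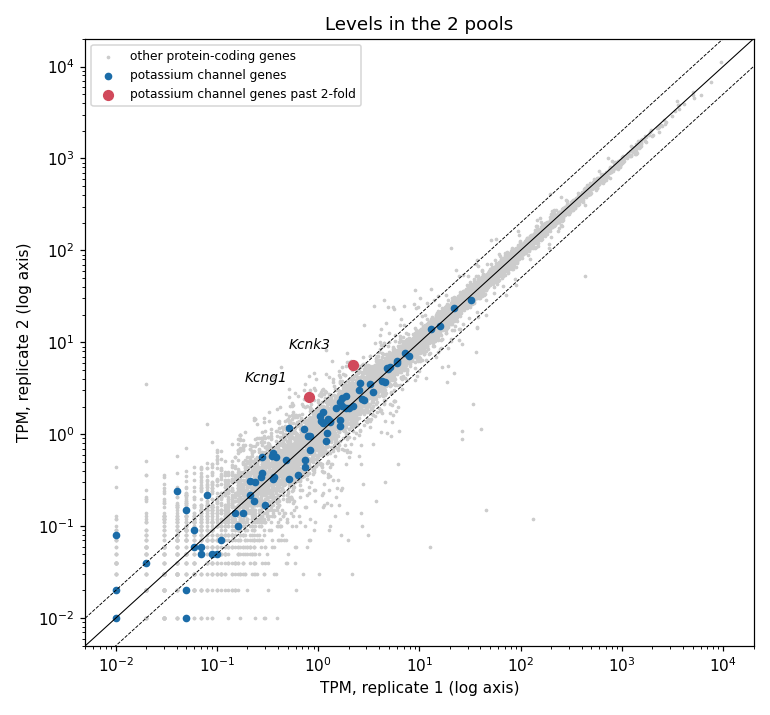
TPM in replicate 1 (horizontal, log axis) against TPM in replicate 2 (vertical, log axis) for protein-coding genes above 0 TPM in both, with potassium channel genes in blue. The solid line marks equal levels and the dashed lines a 2-fold ratio. Kcnk3 and Kcng1, in red, lie above the upper dashed line. Blue points outside the lines at low levels have a mean count below 100.

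Several lists of marker genes for other cell types also differed between the pools. Of 8 adrenal cortex markers all 8 were higher in replicate 2, with sums of 47.23 TPM in replicate 1 and 153 TPM in replicate 2. The 8 adrenal medulla markers summed to 39.27 and 120.7 TPM and 7 of 8 were higher in replicate 2, and the 8 neuron markers summed to 43.87 and 88.16 TPM, again with 7 of 8 higher in replicate 2. Liver markers, all 6 higher in replicate 2, summed to 222.3 and 431.6 TPM. Mural cell markers, which include cells of the kidney's own vessels, were all 8 higher in replicate 2 and summed to 527 and 864.5 TPM. Of these 8, 2 passed 2-fold, Acta2 at 193.2 TPM in replicate 1 and 410.1 TPM in replicate 2 and Myh11 at 5.54 and 24.05 TPM, whereas the pericyte marker Rgs5 had 20.35 and 20.91 TPM. Skeletal muscle markers went the other way, all 8 higher in replicate 1, at 404.9 and 220.2 TPM. No marker of these lists was at 0 in both libraries. The adrenal cortex, adrenal medulla, neuron, liver and mural cell sums were higher in replicate 2, as were Kcnk3 and Kcng1. The skeletal muscle sum was not. The part of any of these cell types in the ratios of Kcnk3 and Kcng1 was not tested. The counts of markers by direction have no such count over all genes beside them.

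Markers of the kidney's own epithelia differed less between the pools. Proximal tubule markers summed to 224.5 TPM in replicate 1 and 228.9 TPM in replicate 2, markers of the loop of Henle and distal tubule to 88.17 and 81.28 TPM, and ureteric tree and collecting duct markers to 684 and 620 TPM. Podocyte markers summed to 229.4 and 242.5 TPM and endothelial markers to 414 and 441.3 TPM. Markers of the labelled tissue were present, as 8 of 8 proximal tubule, 6 of 8 loop and distal tubule, 8 of 8 ureteric and 6 of 6 podocyte markers were detected. Leukocyte markers summed to 174.7 and 186.5 TPM, with 6 of 8 higher in replicate 2, and Schwann cell markers to 12.3 and 14.83 TPM, with 6 of 6 higher in replicate 2. Red cell markers summed to 3636 and 3962 TPM, of which Hbb-bt alone held 3555 and 3855 TPM. All 7 matched red cell markers were higher in replicate 2, and 1 of them, Klf1, at 2.79 and 5.81 TPM, passed 2-fold. The log2 TPM ratio of replicate 1 over replicate 2 was 0.16 for Kcnk1, 0.14 for Kcnj1, -0.10 for Kcnj16 and -0.12 for Kcnj8.

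**Figure D5:**
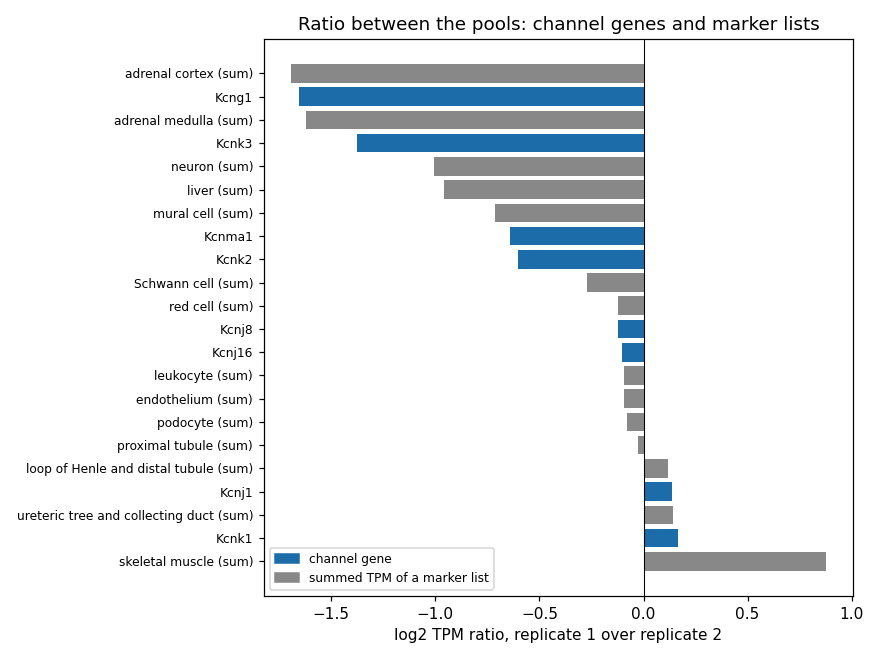
log2 of the TPM ratio of replicate 1 over replicate 2 (horizontal axis) for 8 potassium channel genes (blue) and for the summed TPM of 14 marker lists (grey), where bars to the left mean a higher level in replicate 2. Kcng1 and Kcnk3 lie among the adrenal cortex, adrenal medulla and neuron lists, and Kcnk1, Kcnj1, Kcnj16 and Kcnj8 lie near 0 with the kidney lists.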

How the data were processed

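Total RNA of 2 pools of embryonic kidney was sequenced, with RNA above 200 nt kept and spike-ins added, per the labels. Reads were mapped to mm10 and quantified with GENCODE M4, per the submitters' README text. Not given in the sources used here are the aligner, the quantifier and the use of strand. Expected counts, TPM and FPKM per gene and transcript, and the percent of a gene held by each transcript, are the authors' deposited values. Expected counts are estimated reads that need not be whole. Deposited TPM and FPKM values are adjusted for length, and FPKM was used only as an alternative. Spike-in rows were kept out of all counts of genes.

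Gene symbols, gene types and positions were taken from GENCODE M21, which is also on mm10, by unversioned identifier for 42462 of 43346 mouse genes (98.0%). The red cell marker Ahsp was not matched. The tables used held 0 columns of other samples. Filter codons were read in frame from GENCODE M21 coding sequences, in place of the protein sequences first planned.

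Detection meant at least 1 TPM in each library. Replicate error was the bound on the size of the log2 TPM ratio between the libraries that 95% of mouse genes of any class at 1 TPM or more in each library stayed within, binned by mean TPM at 1, 3, 10, 30 and 100. Pairs were compared on log2(TPM + 1), with a pseudocount of 1 TPM, which understates differences of low genes. A 2-fold ratio needed a mean expected count of 100 or more. Only the 2-fold call was tested on simulated data, with planted changes larger than 2-fold and with counting error alone. Expected counts were rounded for the exact Clopper-Pearson intervals, which cover counting error only, as does the floor of 3 counts for a count of 0. With 1 degree of freedom, no p was computed.

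Named are members at 10 TPM or more, the leading and tissue-relevant members of each family, members past 2-fold, both genes of each pair, the 3 highest genes of the partner and tubule lists and those below 1 TPM. Overlapping genes, antisense partners, remaining members and the transcripts described were named after their values were seen. Some genes, pairs and sequences that fall under this rule are not reported here. The members, lists and pairs were chosen with earlier results of these data known. Alternatives were other thresholds, FPKM, TPM rescaled over nuclear genes, other pseudocounts and count minimums, single libraries, and size factors from edgeR 4.0.16 and DESeq2 1.42.0. Python 3.11.15, pandas 2.3.3, numpy 2.4.6, scipy 1.17.1 and R 4.3.3 were used.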

Additional observations from a re-analysis of the deposited data

How the results depend on the processing

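The count of 38 detected members became 9 at 5 TPM, 46 at 0.5 TPM and 28 with FPKM, stayed at 38 with rescaled TPM or with at least 10 counts in each library, and was 39 to 41 in single libraries. The median of 0.705 TPM became 0.475 with FPKM and 0.783 with TPM rescaled over nuclear genes, under which the sum was 222 in place of 200 TPM. In single libraries the median was 0.67 to 0.74 TPM and the sum 195.4 to 204.4 TPM. The 2 members past 2-fold were the same 2 with TMM factors, DESeq2 size factors or rescaled TPM. At 3-fold 1 was left (Kcng1), and with a pseudocount of 1 TPM 1 was left (Kcnk3). At 1.5-fold 4 passed, at a minimum of 20 counts 5, all higher in replicate 2, and with no minimum 17, of which 12 were higher in replicate 2 and 5 in replicate 1. The share of all protein-coding genes was not counted at these other settings. These counts and their direction are therefore not read as a trait of the members. The 14 pairs past replicate error all remained, in the same direction, with FPKM (14), a pseudocount of 0.1 TPM (17, with Kcnmb1 and Kcnmb4 against Kcnma1 and Kcnj11 against Abcc8 added) and in single libraries (14 to 15, with Kcnmb4 against Kcnma1 added in replicate 1). Pore-class members with a filter match numbered 66, or 77 with serine and leucine also allowed. No paired analysis was possible because the series has 1 group.

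The main limits are 2 libraries of 1 group, so that differences between the pools cannot be set against a spread within each pool, low counts for most members, and exon overlaps. The 27 members with an exon overlapping another gene are uncertain. For most of them the overlap is on the opposite strand, and strand use is unstated. For Kcnab2 and Kcnk4 it is on the same strand, where strand would not tell the reads apart.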

Other observations

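The non-coding genes with a Kcn symbol were outside the 89 members. Kcnq1ot1, the antisense RNA known from imprinting of the Kcnq1 region, had 3.59 TPM in replicate 1 and 3.80 TPM in replicate 2. The antisense gene Kcnmb4os2 had 0.51 and 1.00 TPM, Kcnab3os had 0.61 and 0.32 TPM, Kcnd3os had 0.26 and 0.28 TPM and Kcnmb4os1 had 0.11 TPM in both. Among members below 1 TPM, Kcnh3 overlaps an exon of the opposite-strand gene Mcrs1, which had 116 and 131 TPM, and Kcnh3 itself had 0.27 and 0.34 TPM. Of the 16 detected members that overlap an exon of another gene, 2 (Kcnh7 and Kcnq1) overlap a gene at 1 TPM or more in both libraries. For Kcnk1, Kcne3, Kcnj15 and Kcnma1 the overlapping gene, on the opposite strand, had no level in the data.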
